A study of Caenorhabditis elegans with 5 samples.

Results

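The members described here are 38 *C. elegans* genes annotated as non-coding RNA genes that lie closest to LIN-42 ChIP-seq regions. They were taken from the study's annotated list of genomic regions shared by both LIN-42::GFP replicates, as every closest gene marked as a non-coding RNA whose name does not begin with let-, mir-, F31C3. or ZK218. Of the 412 regions in that list, 52 belonged to these genes, and the 38 genes were among 338 closest genes in all. A further 350 regions were closest to 291 coding genes, and 10 regions to 9 other non-coding genes. The members were chosen by name and not by any value measured in the peak lists, but a region had to hold a peak in both LIN-42::GFP lists to be in the annotated list at all.

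The study mapped where LIN-42, the *C. elegans* homologue of the circadian clock protein PERIOD, is found on chromatin. All 5 samples were extracts of whole animals of strain HML214, which carries a GFP-tagged *lin-42* transgene, and the ChIP animals were late fourth-stage (L4) larvae. LIN-42::GFP was precipitated with anti GFP (abcam 290) in 2 replicates, and 1 further library was made from the same tagged strain with a rabbit antibody raised against LIN-42 itself, here called endogenous LIN-42. That antibody can bind the tagged as well as the untagged protein, and the other 2 samples were input chromatin. Because whole larvae were used, the cells in which a site was bound cannot be told apart.

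Non-coding RNA genes are transcribed into RNAs that act without being translated, and include transfer RNAs, small nucleolar RNAs and many short transcripts with no assigned role. Many of those in *C. elegans* are short and lie between coding genes or inside their introns, so a protein on chromatin beside one of them can also be beside a coding gene. PERIOD proteins act in the nucleus as parts of complexes that repress transcription, and in *C. elegans* LIN-42 is known for its role in the timing of larval development.

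The 3 peak lists rested on few distinct reads. After removal of duplicates, 38236 and 43991 tags (single mapped reads) were kept for LIN-42::GFP replicates 1 and 2 and 122089 for endogenous LIN-42, so that 95% to 99% of the tags were redundant. The lists held 946, 2580 and 1128 peaks, and a peak could be called on as few as 4 tags in each LIN-42::GFP list and 5 in the endogenous list. A control library was named for each LIN-42::GFP list, whereas the header of the endogenous list named none. With 2 LIN-42::GFP libraries and 1 endogenous library no test over samples was made, and intervals given below cover counting error only.

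All 52 regions held a peak in both LIN-42::GFP lists, which the rule required. Over the whole of the replicate 1 list, 41.8% of peaks overlapped a replicate 2 peak. The peak of most tags at a member region held 4 to 42 tags in replicate 1 (median 11), 4 to 60 in replicate 2 (median 11) and, where one was called, 5 to 63 in the endogenous list (median 13.5). Some regions at Y97E10B.12 shared a peak, which then counted more than once. Without the regions of that gene the medians were 9, 10 and 12 tags. At coding genes the medians were 12, 12 and 18 tags, and the highest peaks reached 189, 165 and 580 tags. Tag numbers are not on one scale between lists, since the endogenous library kept more tags. Outside the run at Y97E10B.12, 31 regions had an endogenous peak. Per 10000 kept tags, the endogenous rate was below that of replicate 1 at all 31 and below that of replicate 2 at 28. The same count was not made over all regions of the annotated list, so this order cannot be called particular to the members. The best covered members stayed below the best covered coding regions in each list.

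Most genes had a single region. There were 34 genes with 1 region and 4 with more: Y97E10B.12 with 11, C23H5.10 with 3, and Y95D11A.4 and F16H11.7 with 2 each. The regions of Y97E10B.12 formed a closely spaced run and those of C23H5.10 conflicted with gene order, as described below, so counts are also given without them. The 38 genes were spread over all 6 chromosomes, with 3 on I, 4 on II, 6 on III, 5 on IV, 8 on V and 12 on X. The X chromosome held 31.6% of the member genes, beside 16.6% of all 338 closest genes. By region, it held 13 of the 52 member regions, beside 15.3% of all regions. The share of X among all non-coding RNA genes of the genome was not measured, and a difference was not tested.

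**Figure D1:**
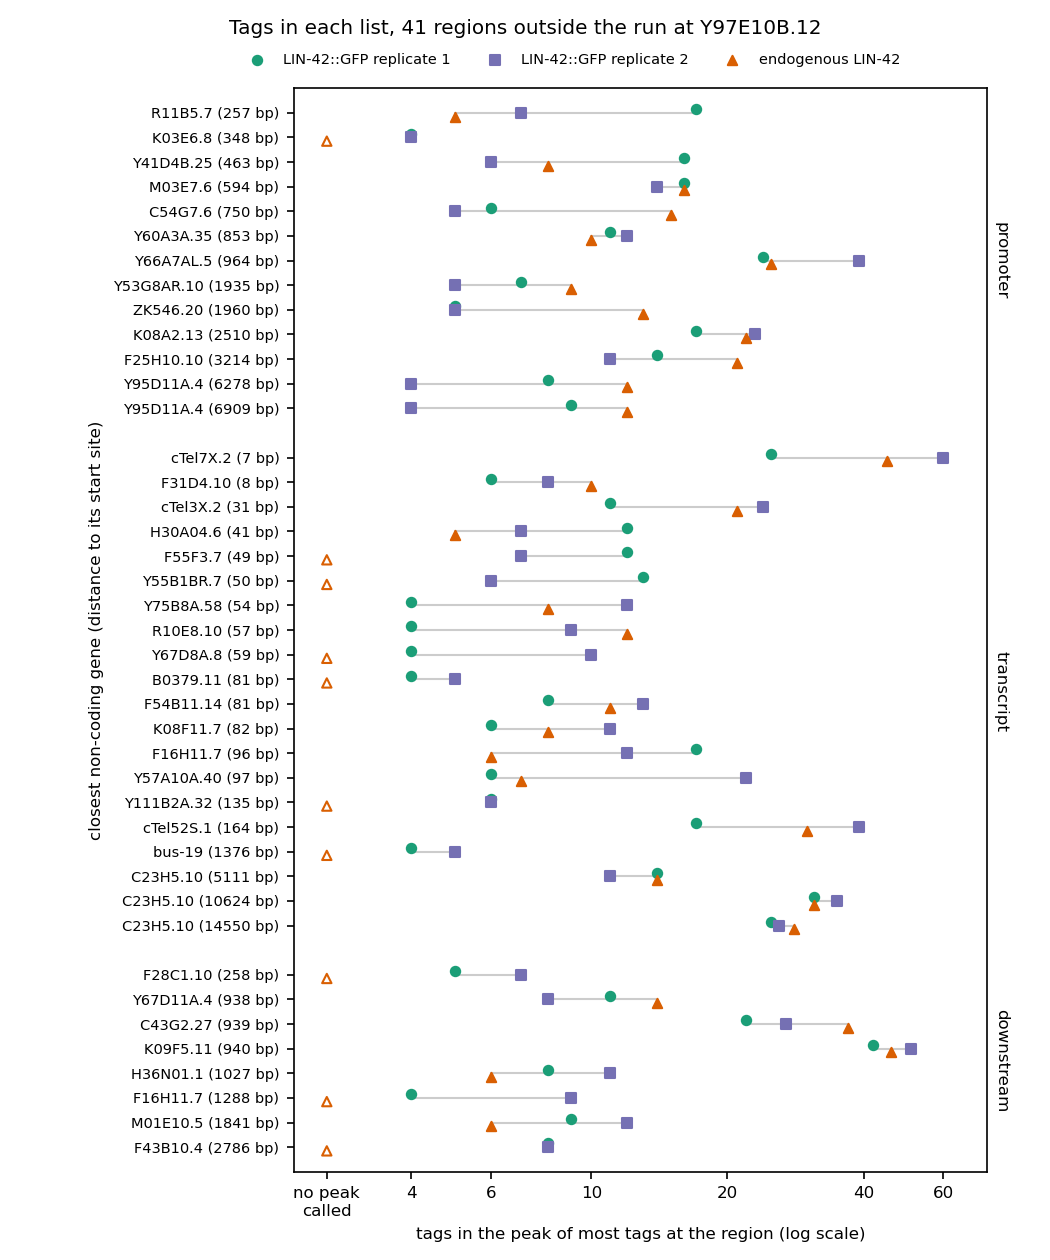
Tags in the peak of most tags at each of the 41 member regions outside the run at Y97E10B.12, on a log axis, for LIN-42::GFP replicate 1 (circles), replicate 2 (squares) and endogenous LIN-42 (triangles). Rows are grouped by gene part and ordered by start-site distance, grey lines join the lowest and highest value, and the 10 open triangles at the left mark regions with no endogenous peak.

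The endogenous antibody was the readout that the choice of members did not use. An endogenous peak overlapped 34 of the 52 member regions, or 65.4% (95% Wilson interval 51.8 to 76.8), beside 77.2% of all 412 regions. At coding genes the share was 279 of 350, or 79.7% (75.2 to 83.6). Without the run at Y97E10B.12 it was 31 of 41, or 75.6% (60.7 to 86.2), and without C23H5.10 as well it was 28 of 38, or 73.7% (58.0 to 85.0). Counted by gene, 29 of 38 members had an endogenous peak at 1 or more regions, or 76.3% (60.8 to 87.0), beside 83.1% of all closest genes. Once the run was left out of the members, their interval included the share over all regions. That share still contained the run and the members, and no regions at coding genes were left out, so the sets were not trimmed alike. The intervals also take regions as independent, whereas the 34 member regions with an endogenous peak held 31 separate endogenous peaks. Whether the members differ from the other regions was therefore not tested.

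Outside the run, 6 of the 10 regions without an endogenous peak had 5 or fewer tags in replicate 1, whereas the 8 regions of the run without one had 11 to 28. Of the regions outside it, 3 of 9 with 5 or fewer tags in replicate 1 had an endogenous peak (33.3%, 12.1 to 64.6), and 28 of 32 regions with more tags had one (87.5%, 71.9 to 95.03). The other regions of the list showed the same order, with 30 of 55 (54.5%) and 254 of 305 (83.3%). Outside the run, the median in replicate 1 was 11 tags at member regions with an endogenous peak and 4.5 at those without. In replicate 2 it was 12 and 6.5. Over the 11 regions of the run, 3 of which had an endogenous peak, the median was 11 tags in each LIN-42::GFP list. The contrast is therefore given only for the regions outside the run. The part of tag number in the missing endogenous peaks was not tested.

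**Figure D2:**
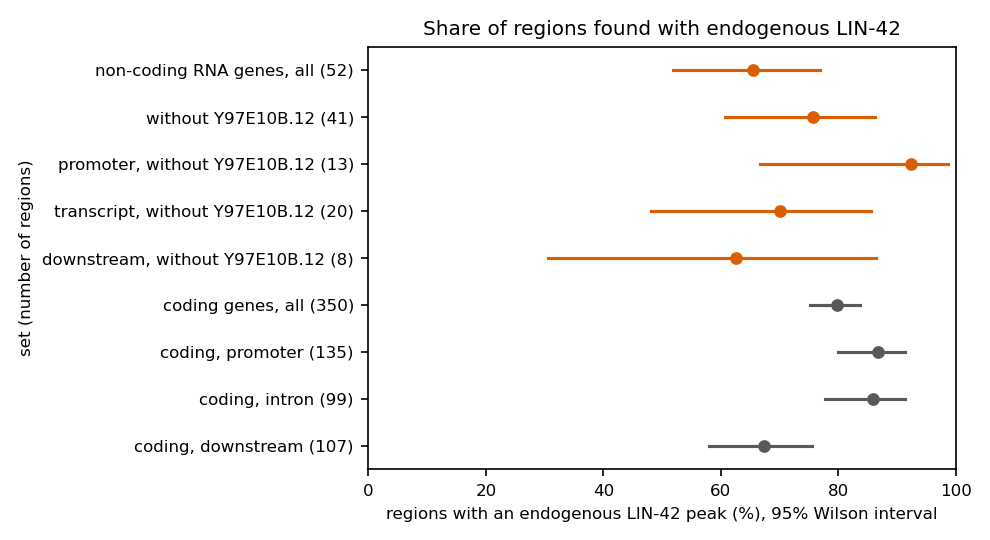
Percent of regions overlapped by an endogenous LIN-42 peak, with 95% Wilson intervals, for the member regions (orange) and the regions at coding genes (grey), with the number of regions in each set. The member promoter regions outside the run stand at 92.3% and the coding promoter regions at 86.7%, and the intervals of the member sets are wide. With the run, the member promoter regions would stand at 60% (38.7 to 78.1), which is not drawn.

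The gene part assigned to a region divided the members into 20 promoter regions at 13 genes, 22 transcript regions at 19 genes and 10 downstream regions at 9 genes. Without the run there were 13, 20 and 8. The transcript regions mostly lay close to the start site: 14 of the 17 left without C23H5.10 were within 100 bp of it and 16 within 200 bp. A transcript region overlaps its gene, so in a short gene it lies near the start site wherever it falls. Gene lengths were not compared, so this closeness does not measure placement at start sites. Of the 13 promoter regions outside the run, 7 were within 1000 bp, 9 within 2000 bp and 4 farther away. With the run, 8 of 20 were within 1000 bp and 8 were beyond 2000 bp. An endogenous peak was present at 12 of 13 promoter regions outside the run (92.3%, 66.7 to 98.6), 14 of 20 transcript regions (70%, 48.1 to 85.5) and 5 of 8 downstream regions (62.5%, 30.6 to 86.3). With the run the order was reversed: 12 of 20 promoter regions (60%, 38.7 to 78.1), 15 of 22 transcript regions (68.2%, 47.3 to 83.6) and 7 of 10 downstream regions (70%, 39.7 to 89.2). Leaving out the run was chosen after seeing the data. With or without it, the intervals of the 3 classes overlapped each other.

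**Figure D3:**
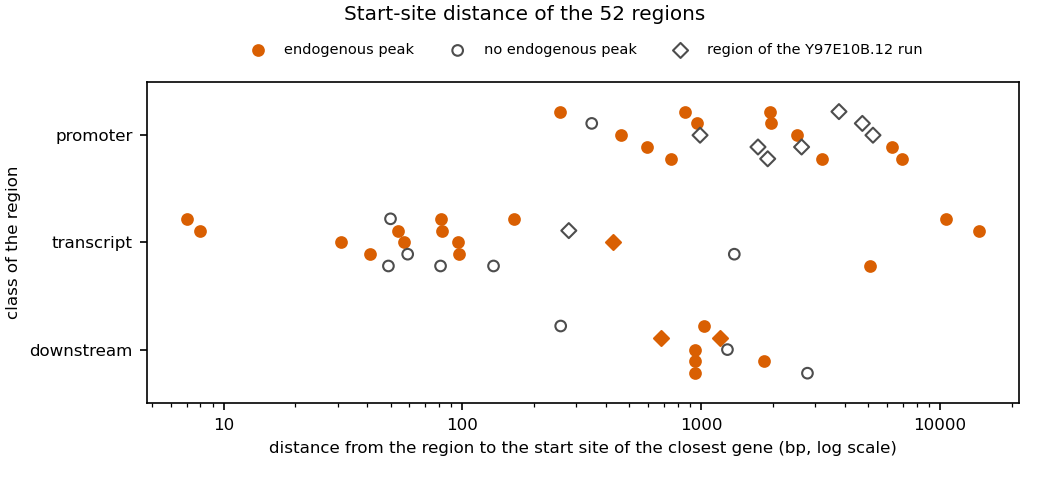
Distance from each of the 52 regions to the start site of its closest gene (bp, log axis) by gene part, with filled symbols for regions with an endogenous peak and diamonds for the run at Y97E10B.12. Transcript regions gather below 200 bp, apart from bus-19, the run and the 3 regions given to C23H5.10.

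Among the promoter regions, R11B5.7 was nearest to its start site, at 257 bp. It held 17 tags in replicate 1, 7 in replicate 2 and 5 in the endogenous list, at X 2517476 to 2517604 (genome build ce10, as for all positions here). The gene lies beside *syg-1*, which encodes an immunoglobulin-family protein of synapse placement. K03E6.8, at 348 bp, was the only promoter region outside the run without an endogenous peak, and its peaks held 4 tags in each LIN-42::GFP list. In the WBcel235 annotation this gene overlaps a tRNA gene. Y41D4B.25, between the nuclear hormone receptor gene *nhr-274* and the ribosomal protein gene *rps-28*, had 16, 6 and 8 tags at 463 bp.

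M03E7.6 had 16, 14 and 16 tags at 594 bp, or 4.18, 3.18 and 1.31 per 10000 kept tags, and C54G7.6 had 6, 5 and 15 tags at 750 bp. Outside the run, the promoter peaks with most tags in each list were at Y66A7AL.5, with 24, 39 and 25 tags at 964 bp (III 11473528 to 11473679). Y60A3A.35, beside the amine-gated chloride channel gene *lgc-55*, had 11, 12 and 10 tags at 853 bp. Farther out, Y53G8AR.10, beside the small GTPase gene *ral-1*, had 7, 5 and 9 tags at 1935 bp. K08A2.13, beside the nuclear hormone receptor gene *nhr-88*, had 17, 23 and 22 tags at 2510 bp. Per 10000 kept tags, K08A2.13 stood at 4.45, 5.23 and 1.80 and Y60A3A.35 at 2.88, 2.73 and 0.82. The endogenous rate was the lowest at both, as at most member regions with an endogenous peak.

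F25H10.10, which lies inside the voltage-gated calcium channel gene *unc-2*, had 14, 11 and 21 tags at 3214 bp from its own start site. ZK546.20, beside the major sperm protein gene *msp-152*, had 5, 5 and 13 tags at 1960 bp, but the endogenous summit lay 433 bp from that of replicate 1 and outside the region. Y95D11A.4, which overlaps a tRNA gene, had adjoining regions at 6278 and 6909 bp. They held 8 and 9 tags in replicate 1 and 4 in replicate 2 at each, and a single endogenous peak of 12 tags reached into both. At ZK546.20 and Y95D11A.4 overlap therefore did not mean a shared summit.

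Of the transcript regions, 3 began at the first bases of a chromosome sequence. cTel52S.1 (II 1 to 379) held 17, 39 and 30 tags, cTel3X.2 (V 2 to 298) held 11, 24 and 21, and cTel7X.2 (X 6 to 284) held 25, 60 and 45. Each was higher in replicate 2 than in replicate 1. All 6 chromosomes had a peak within 1000 bp of the start of their sequence in each of the 3 lists, and the other 3 regions had the closest genes Y74C9A.3, *fbxa-6* and Y38C1AB.4. The replicate 2 peak held more tags than that of replicate 1 at all 6. The replicate 2 peak at cTel7X.2 had the highest false discovery rate of any member, 50%, and also the highest score of any member in that list, 1365.46.

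Outside the run and C23H5.10, the other transcript regions held fewer tags than cTel7X.2 in every list. F31D4.10, beside *unc-80*, a gene for a sodium leak channel component, had 6, 8 and 10 tags at 8 bp. H30A04.6, beside *eat-20*, had 12, 7 and 5 tags at 41 bp. F55F3.7, beside the sodium pump subunit gene *nkb-3*, had 12 and 7 tags at 49 bp and no endogenous peak. Y55B1BR.7 had 13 and 6 tags, the most in replicate 1 of any region without an endogenous peak outside the run. Y67D8A.8, beside the DM-domain gene *dmd-9*, had 4 and 10 tags, B0379.11 had 4 and 5, and Y111B2A.32, inside the AMP-activated kinase subunit gene *aakg-1*, had 6 in each LIN-42::GFP list. None of the last 3 had an endogenous peak.

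Some regions with few tags in replicate 1 did have an endogenous peak. R10E8.10 had 4 and 9 tags and Y75B8A.58 had 4 and 12, and the endogenous peaks there held 12 and 8 tags. K08F11.7 had 6, 11 and 8 tags, F54B11.14 had 8, 13 and 11, and Y57A10A.40 had 6, 22 and 7. F16H11.7 had a transcript region at 96 bp with 17, 12 and 6 tags and a downstream region at 1288 bp with 4 and 9 tags and no endogenous peak. The region given to bus-19 had 4 and 5 tags and none in the endogenous list, at 1376 bp. It is marked as non-coding in the list of shared regions, but WBcel235 has *bus-19* as a protein-coding gene, overlapping *glb-24*.

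C23H5.10 had 3 of the better covered regions, all on chromosome IV. They held 25, 26 and 28 tags (16365423 to 16365595), 14, 11 and 14 tags (16607786 to 16607924) and 31, 35 and 31 tags (16613288 to 16613447), or 6.54, 5.91 and 2.29, then 3.66, 2.501 and 1.15, then 8.11, 7.96 and 2.54 per 10000 kept tags. The endogenous rate was the lowest at each of the 3 regions, as at most member regions with an endogenous peak. The start-site distances given were 14550, 5111 and 10624 bp, beyond those of any other transcript region. In the gene order of WBcel235, however, C23H5.10 lies 2695 coding genes from *nhr-5* and 2789 from *dlc-4*, the closest genes of the regions on each side of the first, and 2817 from Y43D4A.3 beyond the third. Only 5 of the 58 regions on chromosome IV had closest genes that precede C23H5.10. The assignment of these 3 regions to C23H5.10 thus goes against gene order.

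Downstream of non-coding genes, K09F5.11 had the most tags of any member in replicate 1. Its peaks held 42, 51 and 46 tags at 940 bp (X 7718003 to 7718165). C43G2.27 had 22, 27 and 37 tags at 939 bp, and Y67D11A.4 had 11, 8 and 14 at 938 bp. H36N01.1, beside *daf-16*, which encodes the FOXO transcription factor of insulin signalling, had 8, 11 and 6 tags at 1027 bp. M01E10.5, between *ckr-2* and the cuticle gene *dpy-1*, had 9, 12 and 6 tags at 1841 bp.

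Both remaining downstream regions lacked an endogenous peak. F28C1.10, beside *egl-10*, a regulator of G protein signalling, had 5 and 7 tags at 258 bp. F43B10.4, which lies inside F43B10.1, had 8 tags in each LIN-42::GFP list at 2786 bp. In WBcel235, 37 of the 38 members were found by name (F16H11.7 was not), of which 36 were non-coding RNA genes, 6 overlapped a coding gene and 20 overlapped another non-coding gene. Which gene, if any, a peak acts on was not measured.

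The regions of Y97E10B.12 formed a run of wide, low-fold peaks. The 11 regions spanned 6893 bp of chromosome V (7917433 to 7924325), with gaps, and several overlapped, so that they shared peaks. Replicate 1 had 11 peaks with 135 tags there, and replicate 2 had 9 with 88 tags. The peaks were 122 to 1127 bp long in replicate 1 and 230 to 618 bp in replicate 2, beside list medians of 146 and 120 bp. Their fold enrichment was low: folds ran from 13.88 to 42.14 in replicate 1 and from 17.88 to 28.71 in replicate 2, and the highest of them exceeded only 20.0% and 6.40% of the peaks of their own list. A single endogenous peak of 63 tags and 1125 bp (7923241 to 7924365, fold 5.82) lay at the end of the run with the higher coordinates and overlapped 3 of the 11 regions. Wide peaks of low fold were also present at Y95D11A.4, with 482 and 440 bp and folds of 31.84 and 14.87 in replicate 1 and an endogenous fold of 8.93.

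**Figure D4:**
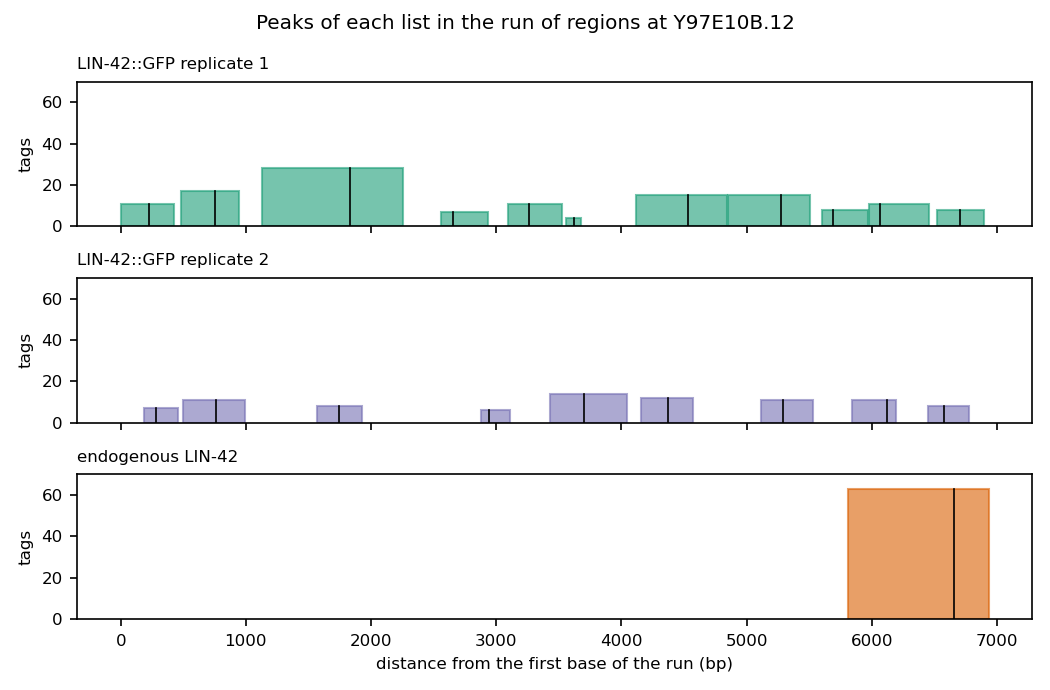
Peaks of each list in the run of regions at Y97E10B.12, plotted as bars from start to end against distance from the first base of the run (bp), with height in tags and a black line at the summit. The LIN-42::GFP peaks are spread with gaps along the 6893 bp, of which they cover 5556 bp in replicate 1 and 3477 bp in replicate 2. The only endogenous peak is the one of 63 tags at the right.

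Tag rates (tags per 10000 kept tags) were compared between the LIN-42::GFP replicates by their ratio with an exact 95% counting interval. Each list's own peak of most tags was used, so the counts can come from stretches of unlike width or place. The interval does not cover this. In replicates 1 and 2 the peaks were 116 and 292 bp long at Y57A10A.40, and 1127 and 361 bp at the run region named below. At the first region of Y95D11A.4 they did not overlap. The rate was higher in replicate 2 at 3 member regions, or 5.77%, beside 8.25% of all regions: cTel52S.1 at 1.99 (1.10 to 3.76), cTel7X.2 at 2.09 (1.29 to 3.47) and Y57A10A.40 at 3.19 (1.25 to 9.61). It was lower at 3 member regions, again beside 8.25% of all regions: Y41D4B.25 at 0.33 (0.10 to 0.88), R11B5.7 at 0.36 (0.13 to 0.91) and 1 region of the run at 0.25 (0.10 to 0.56). The interval included 1 at the other 46, cTel3X.2 among them at 1.90 (0.89 to 4.29). Neither share of members stood above the share over all regions.

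Summits of the LIN-42::GFP replicates were within 10 bp of each other at 23 of 52 member regions (44.2%), beside 48.1% of all regions, and at 22 of 41 without the run (53.7%). All 3 summits were within 10 bp at 15 of the 34 regions with an endogenous peak (44.1%), beside 42.5% of all regions in the 3 lists. Where a list had several peaks at a region, the summit of the one with most tags was used. The largest distance, 506 bp in the run, was measured from a replicate 1 summit at 7923500. Another replicate 1 peak there had its summit at 7924137, nearer to that of replicate 2 at 7924006. At the first region of Y95D11A.4, the summits 416 bp apart belonged to peaks that did not overlap. At K09F5.11 and C43G2.27 the LIN-42::GFP summits were 2 and 0 bp apart. In narrow peaks this measure adds little to overlap, because the summit sits at the middle of the peak. Outside the run, MACS placed the summit within 1 bp of the middle of every peak of 170 bp or less. This held at 24 member regions in replicate 1, 25 in replicate 2 and 22 in the endogenous list.

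**Figure D5:**
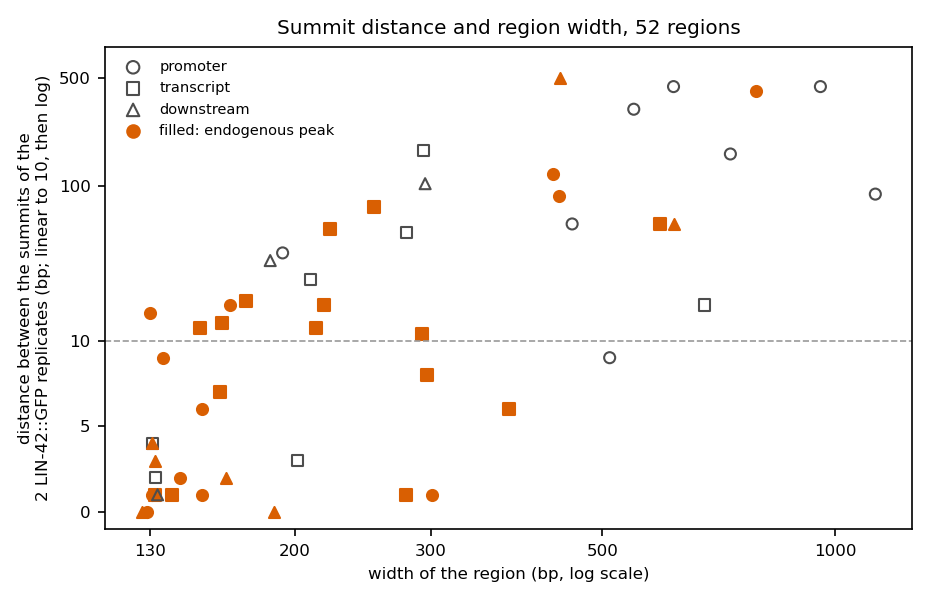
Distance between the summits of the LIN-42::GFP replicates (bp, linear to 10 and then log) against the width of the region (bp, log axis) for the 52 member regions, by gene part, filled where an endogenous peak was present. The dashed line marks 10 bp, and the largest distances, up to 506 bp, are at wide regions. Distances are between the peaks of most tags, which at some wide regions were not the nearest peaks of the replicates.

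The false discovery rate that MACS gave was 0 at every member region in replicate 1. In replicate 2 it was above 5% at 4 of 52 regions (7.69%), beside 4.13% of all regions: Y66A7AL.5 (5.88%), the third region of C23H5.10 (8.33%), K09F5.11 (9.09%) and cTel7X.2 (50%). These 4 were among the members with most tags in that list, and each had an endogenous peak. They also had the highest scores, whereas B0379.11, with 5 tags and a score of 84.69, had a rate of 0.18%. A high rate here thus did not mark the peaks with fewest tags or lowest scores.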

How the data were processed

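ChIP-seq reads of *C. elegans* late L4 larvae were aligned by the authors with Bowtie2 to genome build ce10, and peaks were called per library with MACS (1.4.2 in the deposited list headers) at a p-value threshold of 1e-05. The deposited lists give tags per peak (whole-number counts), a score of 10 times −log10 of the p-value, fold enrichment (a ratio to background) and, for LIN-42::GFP, a false discovery rate in percent, all as made by the authors. The methods describe input controls, but the header of the endogenous list names none.

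Regions, classes and start-site distances came from the study's annotated list of shared regions. Its starts count from 0, so 1 was added. Peaks overlapping a region by 1 bp or more were taken, and where there were several the one with most tags was used. Shares have 95% Wilson intervals. WBcel235 (RefSeq) was used only for names, biotypes and gene order. Computation used SciPy 1.17.1 with pandas 2.3.3 (Python 3.11.15), plots used Matplotlib 3.10.9, and overlap and interval code was tested on simulated data.

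The members and lists were chosen with earlier results of these data known. Every member is named. Values in each list were to be given for members with several regions, at a chromosome start, with most tags, nearest to a start site in each class, or without an endogenous peak. Alternatives were stricter thresholds, 50% overlap, and leaving out genes or libraries. The limit of 5% on the false discovery rate removed the member peaks with the highest replicate 2 scores. Those on endogenous summits, C23H5.10 and the run were chosen after seeing the data. Input libraries entered only through the authors' peak calling. The control names in the headers differ from the labels of the input samples, and the names were not matched to samples.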

Additional observations from a re-analysis of the deposited data

How the results depend on the processing

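Of 66 alternative values, 62 stayed within 1.5 times the value reported. This tally does not measure how stable the results are. Many of the values are counts that fall with the regions removed, some could not change, and a fall from 34 to 24 regions stays within the limit. The shares of regions with an endogenous peak were not among the values varied. The number of regions with a peak in LIN-42::GFP replicate 1 fell from 52 to 34 when only peaks with a p-value up to 1e-10 were kept. The promoter count fell from 20 to 12 when genes were counted by their region of most tags, to 12 when only promoter regions within 2000 bp were kept, and to 13 without the run at Y97E10B.12, an alternative chosen after seeing the data. Regions with an endogenous peak ranged from 24 (p-value of 1e-10 or less) to 34, and genes from 22 to 29. Leaving out either LIN-42::GFP replicate left 34 regions and 29 genes, since the regions were then kept as listed. No paired analysis was possible because no result comes from a test over samples. Tags per peak (as few as 4) limit every comparison of single regions.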
